A study of Mus musculus with 9 samples.

Results

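The genes of citrulline and glutamine metabolism were followed in the jejunum of 9 male OF1 mice, an outbred strain, with 1 mouse on each array. The gene set was given as 6 symbols (Otc, Cps1, Oat, Ass1, Arg2 and Glul) and its members were found by an exact match to the gene symbol of a probe. Of the 6 genes, 5 had a probe, 1 each, among 15674 genes on the array. No probe carried the symbol Cps1, so no level is given for it. All mice were 7 weeks old and belonged to generation 3 of a feeding trial in which mice received feed B, feed K or feed G. Feed B was represented by mice 7, 8 and 10, feed K by mice 1, 3 and 4, and feed G by mice 4, 8 and 11, and each is named below by its feed letter and number (B7 is mouse 7 of feed B). The meaning of the 3 letters is not given in the labels. Food was withheld from all mice for 3 hours before sampling, and the time of day of sampling was not randomized. The segment was taken around the midpoint of the small intestine and holds the whole gut wall, so in these samples fewer cells of a type and less RNA per cell cannot be told apart.

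The small intestine is the main source of the citrulline in blood. In the mitochondria of enterocytes, glutamine and proline are turned into ornithine by way of pyrroline-5-carboxylate and ornithine aminotransferase (Oat). Carbamoyl phosphate synthetase (Cps1) makes carbamoyl phosphate, and ornithine transcarbamylase (Otc) joins it to ornithine to give citrulline. The citrulline leaves the gut and is made into arginine in the kidney by argininosuccinate synthetase (Ass1) and argininosuccinate lyase (Asl), while in the liver the same enzymes serve the urea cycle. Arginase 2 (Arg2) is the mitochondrial arginase, which splits arginine into ornithine and urea. Glutamine synthetase (Glul) makes glutamine from glutamate and ammonia.

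In the mouse assembly GRCm38.p6 the genes lie on different chromosomes or far apart: Otc at chrX:10252230-10321024, Oat at chr7:132557475-132576398, Ass1 at chr2:31470270-31520670, Arg2 at chr12:79130788-79156301, Glul at chr1:153899929-153909723 and Cps1 at chr1:67122426-67231267. Otc and Oat are given here with the RefSeq sequence just before the annotated gene, because these were the 2 genes whose levels moved together over the mice. Each stretch is written 5′ to 3′ on the strand of the gene, and capitals mark CCAAT or its reverse complement. The Otc stretch is chrX:10252055-10252229 on the plus strand (175 bases), and the Oat stretch is chr7:132576399-132576648 on the minus strand (250 bases).
Otc: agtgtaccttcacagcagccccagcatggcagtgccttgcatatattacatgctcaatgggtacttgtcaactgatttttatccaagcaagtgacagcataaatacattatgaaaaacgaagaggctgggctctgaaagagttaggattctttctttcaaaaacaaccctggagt
Oat: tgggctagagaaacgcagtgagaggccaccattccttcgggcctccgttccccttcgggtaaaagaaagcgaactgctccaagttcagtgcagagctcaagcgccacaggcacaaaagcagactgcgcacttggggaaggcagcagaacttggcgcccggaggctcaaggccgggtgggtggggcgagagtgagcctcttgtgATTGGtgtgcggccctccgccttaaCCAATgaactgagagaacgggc
The stretches differ in base composition, with 41.7% G and C before Otc and 60% before Oat. Letters were searched on both strands of the 300-base promoter window, from 250 bases before to 50 bases after its start. For Otc this start lies inside the annotated gene, so only the first 175 bases of its window are shown above. CCAAT was found at 2 places in the Oat window and at none in the Otc window, and 37.4% of all 32851 promoter windows hold it. TATAAA (13.6% of windows) was in neither. TGATAA (9.05% of windows) was at 1 place in the Otc window and not in that of Oat. GGGCGG (35.7% of windows) was at 2 places in the Oat window and not in that of Otc. The table of promoters held 4 of the 6 genes, Otc, Oat, Ass1 and Glul.

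The arrays differed in the share of detected probes and in the level of ileal genes. Between 33.7% and 48.1% of probes counted as detected (signal at 3 times the noise or more), with the lowest shares on B8 and B7 (33.7% and 36.7%). The enterocyte genes checked were detected on all arrays (8 of 8 with a probe, Fabp2 and Vil1 among them). Of 8 hepatocyte genes, Fga and Tat were detected on no array and Apoh and Ahsg on 1 each, while Alb and Serpina1a were detected on 5, Cyp2e1 on 8 and Ttr on 9. Of 7 acinar pancreas genes with a probe, 3 were detected on none, 3 on 1 or 2, and Cela1 on all 9. Fabp6, the ileal bile acid binding protein, lay at 15.81, 17.84 and 19.51 log2 units on B7, B10 and G11 and between 4.67 and 12.19 on the other 6 arrays. Of 15 clock genes tested, 10 had an unadjusted p under 0.05 over the 3 feeds (limma F test), against 5.37% of all genes tested. The adjusted p was above the threshold for every gene tested. Sampling time was neither recorded nor randomized by feed, so feed and time of sampling cannot be told apart.

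Of the 5 genes with a probe, none passed the test for a difference between the feeds. In limma fits over the 9652 genes detected on at least 3 arrays, 0 of 5 had an adjusted p under 0.05 over the 3 feeds or in any of the 3 pairs of feeds, and the share of all genes called was 0.0% in each of these tests. At an unadjusted p under 0.05, again 0 of 5 passed over the 3 feeds, where 518 genes (5.37%) did, and 0 of 5 passed for feed K minus feed B (6.31% of all genes), feed G minus feed B (5.74%) or feed G minus feed K (4.54%). An exact permutation of the mice over the feeds gave 0 of 5 an unadjusted p under 0.05. Its smallest possible p of 0.00357 leaves little room for a call after adjustment over 9556 genes. What follows describes each gene in the order of the pathway, with values as log2 of the quantile normalized signal. These values compare mice for 1 probe and do not rank genes against each other.

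**Figure D1:**
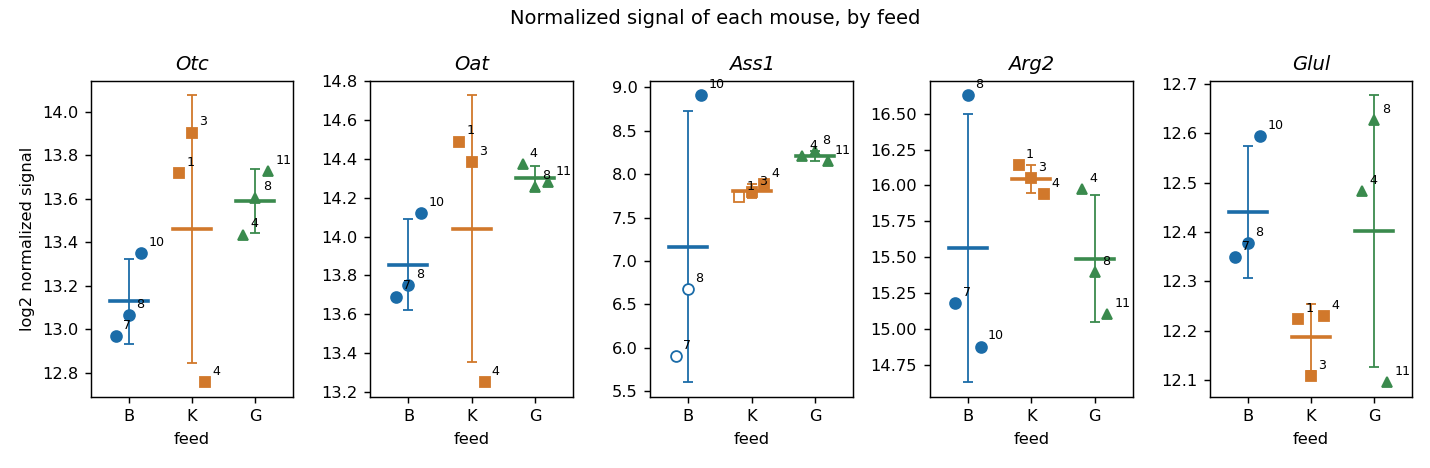
Log2 normalized signal (vertical axes, each with its own scale) of the 5 genes with a probe in each mouse, by feed (horizontal axes). Points are mice with their numbers, open where the signal-to-noise ratio was under 3, thick lines are means and bars the SD (n = 3). The lowest Otc and Oat values both belong to mouse 4 of feed K (12.75 and 13.25), and Ass1 in feed B runs from 5.90 to 8.91.

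Oat, which makes ornithine in the gut, was bright on all arrays, with signal-to-noise ratios from 32.5 to 90.8. Its log2 signal was 13.69, 13.75 and 14.12 in B7, B8 and B10. It was 14.49, 14.38 and 13.25 in K1, K3 and K4. It was 14.37, 14.26 and 14.28 in G4, G8 and G11. All feed G values lay above all feed B values, while feed K held both the 2 highest values and the lowest value of the 9. The difference of feed G minus feed B was 0.45 (SE 0.33, 95% confidence interval −0.30 to 1.20, limma adjusted p = 0.888), a 1.37-fold difference with an interval from 0.81-fold to 2.30-fold. Without K4, the Oat difference of feed K minus feed B went from 0.19 (limma adjusted p = 0.962) to 0.58 (limma adjusted p = 0.847), with an unadjusted p under 0.05. In that fit 548 of 9511 genes passed this unadjusted level for the same pair.

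Otc, the enzyme that forms citrulline, was also measured far above noise everywhere (signal-to-noise ratios 43.9 to 119). In feed B its log2 signal was 12.97 in B7, 13.06 in B8 and 13.35 in B10. In feed K it was 13.72 in K1, 13.91 in K3 and 12.75 in K4. In feed G it was 13.44 in G4, 13.61 in G8 and 13.73 in G11. As for Oat, feed G did not overlap with feed B, and K4 stood below all other mice. Feed G minus feed B was 0.46 (SE 0.31, interval −0.24 to 1.16, limma adjusted p = 0.888), which is 1.38-fold with an interval from 0.85-fold to 2.24-fold. Leaving out K4 moved the Otc difference of feed K minus feed B from 0.33 (limma adjusted p = 0.897) to 0.68 (limma adjusted p = 0.847), again with an unadjusted p under 0.05. K4 was the lowest mouse for Otc and Oat, so leaving it out raises the feed K mean of each in any case. It also narrows the spread. For feed G minus feed B without K4, Otc stayed at 0.46 and Oat at 0.45, each with an SE of 0.19. Both then had an unadjusted limma p under 0.05 in that pair (limma adjusted p = 0.796 for each), as did 585 of 9511 genes. Otc and Oat moved together over the mice, so these are not separate results.

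Ass1, which carries citrulline on towards arginine, was dim. Its signal-to-noise ratios were 0.70, 1.03 and 11.7 in B7, B8 and B10. They were 1.77, 4.51 and 3.39 in K1, K3 and K4. They were 3.30, 6.97 and 4.33 in G4, G8 and G11. Ass1 was thus detected in 1 mouse of feed B, in 2 of feed K and in 3 of feed G. The log2 signal was 5.90, 6.68 and 8.91 in feed B, 7.74, 7.79 and 7.89 in feed K, and 8.21, 8.26 and 8.15 in feed G. Feed B thus held the 2 lowest values and the highest one, and the values of feeds K and G each lay within a narrow band, with all of feed G above all of feed K. Feed G minus feed B was 1.05 (SE 0.65, interval −0.44 to 2.53, limma adjusted p = 0.888). Without B7 the Ass1 difference was 0.43 (limma adjusted p = 0.957). Without B10 it was 1.92 (limma adjusted p = 0.0552), and feed K minus feed B went from 0.64 to 1.52 (limma adjusted p = 0.0716), but feed B then held only B7 and B8, where Ass1 was not detected, so these are values against signals at the noise level and not measured folds. B7 and B8, where Ass1 was not detected, were the arrays with the smallest shares of detected probes. Over the 9 arrays that share correlated with Ass1 at r = 0.766 (exact permutation p = 0.0183, adjusted over the 5 genes 0.0726, rho 0.65), and r was 0.096 without the 2 arrays farthest from the median share. Another fit left out spots at the noise level (signal-to-noise under 1), which for Ass1 dropped B7 alone and kept B8. There the Ass1 difference between feeds G and B was 0.49, near the 0.43 without B7. Feed K minus feed B was −0.04 in that fit, so no direction can be given for feed K minus feed B.

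Arg2, the arginase of mitochondria, had the largest spread of the 4 members detected on all arrays after quantile normalization, though not after median scaling or in the series table. Its log2 signal was 15.18, 16.63 and 14.88 in B7, B8 and B10, 16.14, 16.05 and 15.94 in K1, K3 and K4, and 15.97, 15.39 and 15.10 in G4, G8 and G11. Feed B held the highest value and the lowest one, and no pair of feeds was free of overlap. The pair with the smallest p was feed G minus feed K, at −0.56 (SE 0.44, interval −1.57 to 0.46, limma adjusted p = 0.960). Without G11 the Arg2 value for this pair was −0.36, and without B8 the value for feed K minus feed B went from 0.48 to 1.01 (limma adjusted p = 0.516).

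The 3 mice with the lowest Arg2, namely B10, G11 and B7, were the 3 with the highest Fabp6. The next ileal gene, the bile acid uptake carrier Slc10a2, was highest in G11 and B10 (12.66 and 12.05), at 9.46 in B7, and between 6.53 and 9.73 in the rest. Gpr120 was likewise highest in G11 and B10 (8.69 and 8.63), and Fgf15 was detected on 1 array, G11. With Cubn lacking a probe, these are all 4 measured members of the ileal list. Their summed normalized signal ran from 511 to 239073 in feed B, from 750 to 5231 in feed K and from 451 to 755229 in feed G. Leaving out the arrays B7, B10 and G11 (a choice made after these values were seen) keeps B8 alone for feed B, so no call is read from that fit. Since B7, B10 and G11 are also the 3 mice with the lowest Arg2, the Arg2 values without them say nothing of Arg2 itself. The part of the ileal genes in the Arg2 values was not tested.

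**Figure D2:**
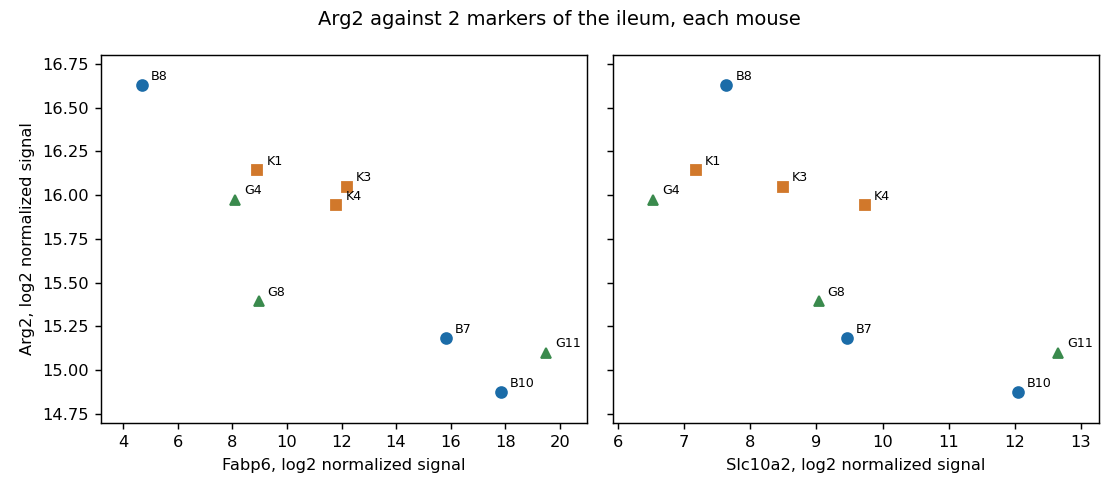
Arg2 (vertical axis) against the ileal genes Fabp6 (left) and Slc10a2 (right), all as log2 normalized signal; each point is 1 mouse, with circles for feed B, squares for feed K and triangles for feed G. B7, B10 and G11 hold Fabp6 at 15.81 to 19.51 and Arg2 at 14.88 to 15.18, below the other 6 mice.

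Glul, which makes glutamine, was the steadiest of the 5. The values were 12.35, 12.38 and 12.59 in B7, B8 and B10, 12.22, 12.11 and 12.23 in K1, K3 and K4, and 12.48, 12.63 and 12.10 in G4, G8 and G11. All feed K values lay under all feed B values, and feed G spanned the whole range. Feed K minus feed B was −0.25 (SE 0.19, interval −0.70 to 0.19, limma adjusted p = 0.869), or 0.84-fold with an interval from 0.62-fold to 1.14-fold. The difference turned to 0.19 when arrays were scaled to a common median. That scaling moved the median difference of all tested genes from 0.05 to 0.41 in the same comparison. No direction can thus be given for Glul.

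Values free of overlap were found for 1 of 5 genes between feeds K and B (Glul), for 2 of 5 between G and B (Otc and Oat) and for 1 of 5 between G and K (Ass1). Of all genes tested and measured on all arrays, 9.94%, 10.9% and 13.7% were free of overlap in these pairs.

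**Figure D3:**
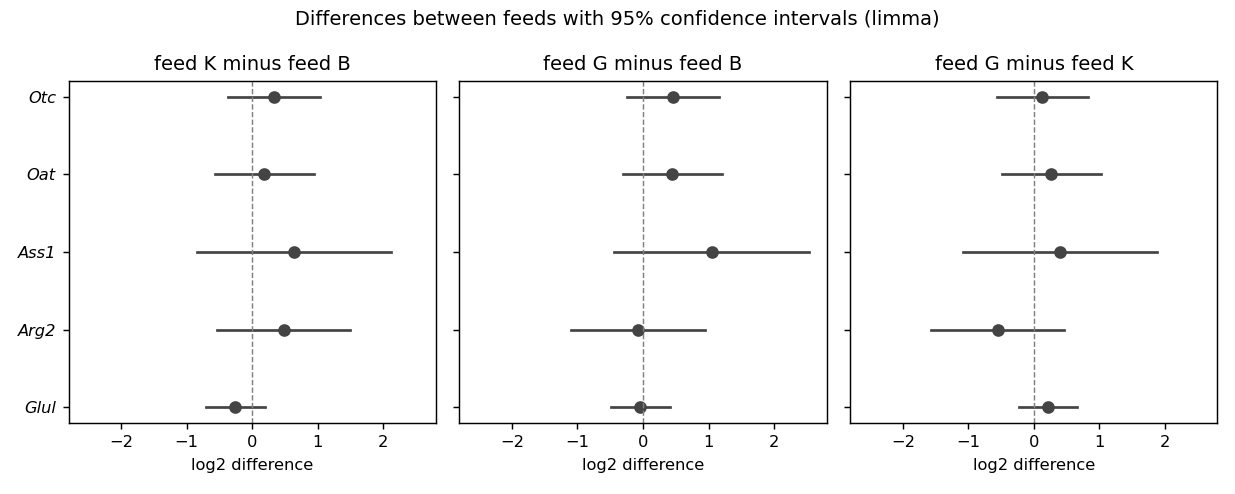
Differences in log2 normalized signal between feeds (horizontal axes) for the 5 genes with a probe (vertical axis), as limma estimates (points) with 95% confidence intervals (lines). All 15 intervals include 0, and those of Ass1 are the widest.

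The spread over the 9 mice differed from gene to gene. The SD of log2 signal over the 9 mice was 0.20 for Glul, 0.39 for Otc, 0.41 for Oat, 0.58 for Arg2 and 0.91 for Ass1. For comparison, the median SD was 0.29 over the 5887 genes detected on every array, with quartiles of 0.21 and 0.42. A smaller SD than that of Glul was found in 20.4% of these genes, and the corresponding shares were 70.4% for Otc, 73.7% for Oat and 89.9% for Arg2. As a coefficient of variation of the normalized signal, the spread was 13.7% for Glul, 25.8% for Otc, 25.3% for Oat and 40.1% for Arg2, against a median of 20.1%. From the lowest to the highest mouse, Glul spanned 1.45-fold, Otc 2.22-fold, Oat 2.36-fold and Arg2 3.37-fold. The spread of 3 of these genes depended on the scaling of the arrays: with median scaling the range was 2.10-fold for Glul, 3.46-fold for Otc and 3.42-fold for Oat, and these ranges were 1.91-fold, 3.88-fold and 3.63-fold in the values of the series table. The order changed too, since the SD with median scaling was 0.71 for Otc and for Oat, 0.55 for Arg2 and 0.36 for Glul. The share of the sum of squares lying between feeds was 36.3% for Glul, 27.8% for Otc, 25.5% for Ass1, 22.4% for Oat and 20.1% for Arg2. With 3 feeds of 3 mice, a gene that feed does not move still has part of its sum of squares between feeds. On average most of it lies within feeds. These shares alone thus show no effect of feed. The part within feeds also holds differences between arrays, since each mouse had 1 array.

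**Figure D4:**
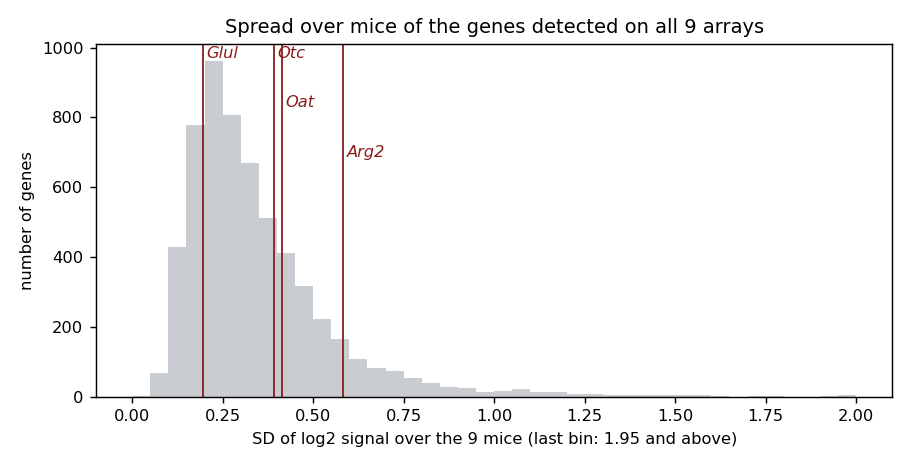
Number of genes (vertical axis) by the SD of log2 signal over the 9 mice (horizontal axis) for the 5887 genes detected on all arrays, with red lines at Glul (0.20), Otc (0.39), Oat (0.41) and Arg2 (0.58). Glul lies on the left flank of the distribution and Arg2 in its right tail.

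Otc and Oat rose and fell together from mouse to mouse. Over the 9 mice Pearson's r was 0.933 (exact permutation p = 0.000419, adjusted over the 10 pairs of the 5 genes 0.00419) and Spearman's rho 0.883 (exact permutation p = 0.00308, adjusted 0.0308). The order began with K4, B7, B8 and B10 for both genes and ended with K1, K3 and the 3 mice of feed G. Without the 2 mice farthest from the median of Otc, r was 0.922, and with any 1 mouse left out it lay between 0.902 and 0.960. After the mean of each feed was subtracted, r was 0.932. It fell to 0.776 when the 2 mice farthest from the median of these subtracted Otc values were left out, so the relation within feeds was weaker without its extremes. Without B7, B10 and G11, with no feed means subtracted, r was 0.935 over 6 mice (exact permutation p = 0.0153, adjusted 0.104). The other 9 pairs had r from −0.290 to 0.452 and adjusted p of 0.758 or above. For Ass1 and Arg2, r was −0.290 over all mice and −0.875 without B7 (exact permutation p = 0.00283, adjusted 0.0141).

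Among the 5886 other genes detected on all arrays, the gene most like Otc in its pattern over the mice was Hnf4g (r = 0.955), followed by Oat (0.933). The gene most like Oat was also Hnf4g (r = 0.965), followed by Chchd3 (0.935) and Otc (0.933). Hnf4g encodes the nuclear receptor HNF4 gamma, a transcription factor of the intestinal epithelium. Its log2 signal was 11.10, 11.20 and 11.53 in B7, B8 and B10, 12.16, 12.07 and 10.55 in K1, K3 and K4, and 11.64, 11.93 and 11.70 in G4, G8 and G11 (limma adjusted p over the feeds = 0.914). K4 was the lowest mouse for all 3 genes, and K1 and K3 were among the highest. These are the top ranks of 5886 correlations over 9 points that share arrays, so they are given as a description. The letters CAAAGTCCA, an HNF4 motif held by 0.475% of promoter windows, were not found on either strand of the Otc or Oat windows. Since nearly all windows lack these exact letters, nothing is read from their absence, and a role of HNF4 was not tested.

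**Figure D5:**
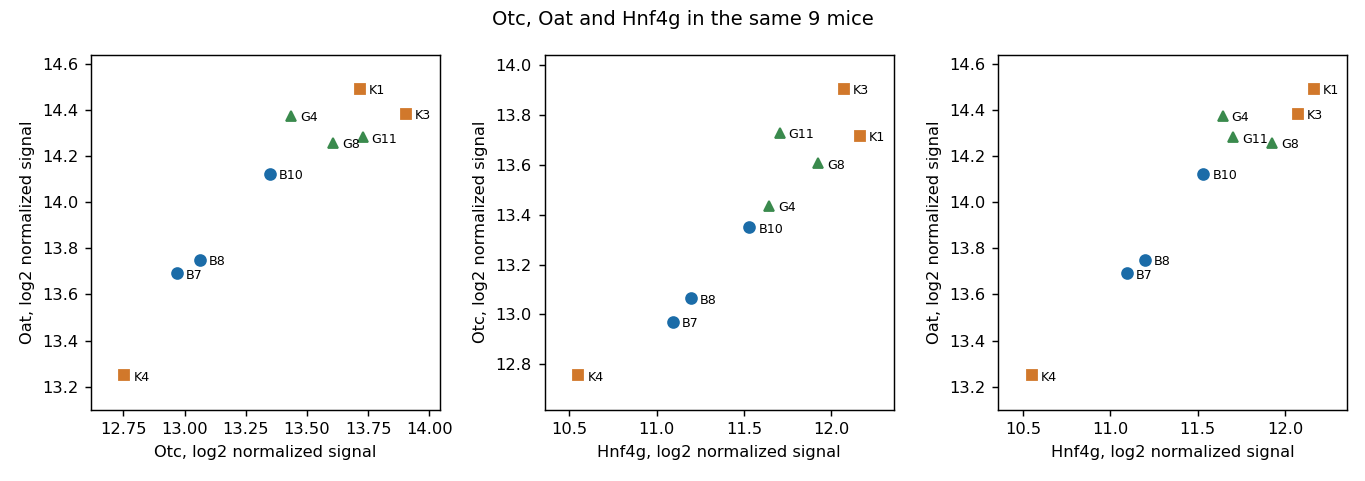
Oat against Otc (left), Otc against Hnf4g (middle) and Oat against Hnf4g (right), as log2 normalized signal on all axes; each point is 1 mouse, with circles for feed B, squares for feed K and triangles for feed G. K4 lies at the lower left and K1 and K3 at the upper right in each panel.

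Other measures were set beside Otc and Oat. The share of probes detected on an array correlated with Otc at r = 0.722 (exact permutation p = 0.029, adjusted over the 5 genes 0.0726, rho 0.75, 0.653 without the 2 arrays farthest from the median share) and with Oat at r = 0.644 (exact permutation p = 0.0585, adjusted 0.0975, rho 0.567). The B cell gene Cd79a was lowest in K1 and K3 (7.54 and 8.02), 2 mice with high Otc and Oat, and was between 9.27 and 10.82 in all others, with its highest value in G8. Of the other immune genes reported, Ptprc was lowest in B8, Cd3e was highest in K3, and Cd68 was highest in G4. The summed normalized signal of these 4 immune genes ran from 1357 to 2739 in feed B, from 506 to 2544 in feed K and from 1357 to 3035 in feed G. The part of these measures in the Otc and Oat values was not tested. Of the 8 enterocyte genes, Fabp2 and Vil1 were picked after their values were seen, and the rest are not given singly. In K4, Fabp2 was at 20.58 and Vil1 at 18.04, against 19.99 to 20.79 and 17.63 to 18.20 in the other mice. The summed normalized signal of the 8 enterocyte genes was 3.85e+06 in K4, within the 2.40e+06 to 3.99e+06 of the others. The brightest genes weigh most in this sum. The part of the enterocyte share in the K4 values was not tested.

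For the other genes, the most similar patterns were those of 2210407C18Rik for Arg2 (r = 0.975), Gcs1 for Glul (r = 0.928), and Bax for Ass1 (r = 0.939). 2210407C18Rik was at 12.95, 12.27 and 12.35 in B7, B10 and G11 and at 15.26 in B8, so its extremes fell on the same mice as those of Arg2. Trappc4 and 1700108L22Rik followed for Arg2, Nxt1 and 1810031K02Rik for Glul, and Hspb1 and Umpk for Ass1.

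The neighbouring steps of the pathway were read from 4 lists. Of the 14 genes on the way from glutamine and proline to ornithine and citrulline, 12 had a probe and 10 were tested, and 0 of 10 had an unadjusted p under 0.05 over the feeds in the limma F test. The mitochondrial carbonic anhydrase gene Car5a, whose enzyme supplies bicarbonate to Cps1, was detected on no array, and Car5b on 1. Nags, which makes the activator of Cps1, was detected on all 9 arrays, between 9.72 and 10.69. Of the list's 8 genes detected on all arrays, Glud1, the glutamate dehydrogenase gene, had the largest SD, 0.77. Its log2 signal was 12.83, 13.33 and 13.61 in B7, B8 and B10, 14.03, 14.92 and 13.19 in K1, K3 and K4, and 14.36, 15.08 and 13.75 in G4, G8 and G11. Feed G lay above feed B for all mice of Glud1, by 1.14 (SE 0.49, limma adjusted p = 0.858). Of all genes tested and measured on all arrays, 10.9% were free of overlap in that pair. Glud1 was the 1 gene of the 10 tested here with an unadjusted limma p under 0.05 in that pair, against 5.74% of all genes tested.

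Of the 8 genes of arginine, urea and nitric oxide metabolism, 6 were tested and none passed an unadjusted p of 0.05 in any test. Asl, which follows Ass1, was detected on 6 arrays and lay between 8.65 and 9.82. The nitric oxide synthase genes were mostly undetected, with Nos1 on 0, Nos3 on 2 and Nos2 on 5 arrays. Ddah1, whose enzyme breaks down methylated arginines, had an SD of 1.11. It was at 11.18, 10.53 and 11.32 in B10, K4 and G11, and between 8.28 and 9.35 in the other 6 mice. Arg1, the cytosolic arginase, had 2 probes: 1 was detected on all arrays and lay between 16.30 and 16.75 (SD 0.13, a 1.36-fold range), and the other was detected on 1 array only.

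Of 9 genes that use ornithine or aspartate, 7 were tested, and none had an unadjusted p under 0.05 over the feeds. Odc1, which starts polyamine synthesis from ornithine, lay between 13.19 and 13.83. Got1, the cytosolic aspartate aminotransferase, was the 1 gene of this list with an unadjusted p under 0.05 in a pair of feeds, at 0.61 for feed K minus feed B (SE 0.22, limma adjusted p = 0.784). Of all genes tested, 6.31% passed this unadjusted level for that pair. Of 18 carriers, 12 were tested, again with none under 0.05 over the feeds. Slc25a15, which exchanges ornithine and citrulline across the inner mitochondrial membrane, was at 13.72, 14.06 and 13.81 in B7, B8 and B10, 14.33, 14.43 and 13.99 in K1, K3 and K4, and 14.03, 13.99 and 13.51 in G4, G8 and G11. Its SD of 0.28 was close to the median of all genes detected on all arrays. The glutamate carrier Slc1a1 was the 1 carrier with an unadjusted p under 0.05 in a pair, at 0.54 for feed G minus feed K (SE 0.21, limma adjusted p = 0.960).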

How the data were processed

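Jejunal RNA of 9 mice (3 per feed) was hybridized to single-colour chemiluminescence arrays with 60-mer probes. The authors deposited, per array, a signal intensity after background and spatial correction, a signal-to-noise score and a flag score, and a table of processed intensity values for the series, whose scaling is not stated beyond the name RMA in the submitters' processing notes. The depth of an array is not a count, and the number of arrays limits the precision. Here, spots with a flag above 5000 were dropped (432 to 1045 of 33012 per array), a choice of this re-analysis. Intensities were quantile normalized and put on a log2 scale, and several probes with 1 symbol were averaged, following the study's methods. Genes detected (signal-to-noise of at least 3) on at least 3 arrays were tested with limma 3.58.1 in R 4.3.3 (feed as the factor, Benjamini-Hochberg adjustment over all genes tested). The fit was tested on simulated data. Correlations used exact permutation tests, two-sided. Genes named were all 6 symbols, with the pair of feeds of smallest p, the pathway genes with an unadjusted F test p under 0.05 (there were none), the 3 pathway genes of largest SD (of genes detected on each of the 9 arrays), and the 3 genes most like each member (1 of those for Otc, and some list genes, are not reported here). Others (Asl, Nags, Odc1, Got1, Slc1a1, Slc25a15, Car5a, Car5b, the Nos genes and the markers) were chosen after their values were seen. The members and lists were chosen with earlier results of these data known. Sequences and positions come from RefSeq (GRCm38.p6), whose gene table matched all 6 symbols. The labels name separate mice as replicates. Scaling, probe choice, filters, the test and each array in turn were varied.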

Additional observations from a re-analysis of the deposited data

Results flagged for a closer look

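Of the 28 member and pathway genes detected on all arrays, 2 had 1 mouse set apart from the others. The gap from that mouse to the nearest other, as a share of the range over the 9 mice, passed Dixon's 95% limit. Chance passes this limit for about 1 gene in 20, so 2 of 28 is near the chance share. For Arg1, averaged over its 2 probes, B8 lay at 16.62 and the other mice between 10.85 and 11.91 (gap 0.817 of the range). The dim Arg1 probe was a failed spot on B8 and was dropped there, so that the B8 average held the bright probe alone, and by the bright probe B8 was within the 16.30 to 16.75 of all mice. For Slc25a12, a carrier of aspartate and glutamate, G4 lay at 10.39 and the other mice between 9.62 and 9.97 (gap 0.550 of the range).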

How the results depend on the processing

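Under every alternative that kept at least 2 mice per feed, none of the 5 genes that was tested was called. This held over the 3 feeds and in each pair of feeds that was tested. With only genes detected on all arrays, 4 of the 5 were tested, since Ass1 dropped out. The exact permutation was run over the 3 feeds and not for the pairs. Among all genes tested, the largest count called in these alternatives was 10 of 9443, for feed K minus feed B without B10. Without B7, B10 and G11, feed B holds B8 alone, and no call is read from that fit. The count of pairs of genes correlated past an adjusted p of 0.05, 1 as reported (Otc and Oat), was 4 with median scaling, 2 with the series table, and between 1 and 2 when each array was left out. With median scaling, the added pairs were Otc and Glul (r = 0.813), Oat and Glul (0.842), and Ass1 and Glul (0.837), and with the series table the added pair was Oat and Glul (0.814). It was 0 without B7, B10 and G11, an alternative chosen after seeing the data, which leaves 6 mice. Otc and Oat passed the threshold under all alternatives but this last one. The difference of Glul for feed K minus feed B was reversed with median scaling (0.19). Median scaling moved the median difference of all tested genes to 0.41 (K minus B) and 0.53 (G minus B), and the series table moved it to 0.21 and 0.30. The difference of feed G minus feed B was 1.01 for Otc and 1.00 for Oat with median scaling. With it, 1077 genes had an unadjusted F test p under 0.05, against 518. No paired analysis was made, because the labels name separate mice and give no link between mice of different feeds. Equal numbers in different feeds (8 in B and G, 4 in K and G) are not taken as the same mouse. Slide or scan could not be used as a block, since each array had its own barcode.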
